A study of Homo sapiens with 6 samples.

Results

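The genes described here are 41 genes of the DNA damage checkpoint and of DNA repair, of 58219 gene identifiers counted in each library. These genes were chosen with earlier results of these data known. They were taken by name: 10 act in homologous recombination, 11 in the Fanconi pathway, 9 in the trimming of broken ends and the processing of joined DNA molecules, 2 in mismatch repair, 4 in end joining and 5 in the checkpoint. RNA was sequenced from SNU-387, an established line from a human pleomorphic hepatocellular carcinoma. The shNT group (n = 3) stably expressed a short hairpin RNA with no intended target, and the shYES1 group (n = 3) one directed at YES1, which encodes a SRC-family tyrosine kinase. Both groups are the same line, and neither has another stated treatment. The labels do not say whether the lines are pools or clones, how many hairpins were used or whether libraries came from separate cultures. All p-values thus reflect variation among these libraries, which may be technical. The question asked of these genes was which repair pathways differed in RNA level when YES1 was lowered, and by how much.

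A break through both strands of DNA can be mended by homologous recombination, which copies the lost sequence from the sister chromatid after replication, or by end joining, which seals the ends at any time in the cell cycle. The Fanconi pathway unhooks strands that are crosslinked to each other, mismatch repair corrects copying errors behind the replication fork, and the checkpoint kinases ATM and ATR sense damage and halt division through CHEK2 and CHEK1. Many recombination and Fanconi genes are transcribed mainly in dividing cells under E2F factors, whereas end-joining genes are expressed throughout the cycle. In liver cancer these pathways bear on how cells withstand replication stress and DNA-damaging drugs.

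YES1 itself measured 177.7 to 180.9 CPM (a library's read counts brought to a standard total, with TMM scaling factors) in shNT and 42.9 to 46.0 CPM in shYES1. Libraries held 11290889 to 18944148 gene reads, and a single member had from 16 reads (RMI2) to 7378 reads (XRCC6) in a library. The labelled tissue was only in part borne out: of 9 hepatocyte markers, SERPINA1 (19.2 ± 1.34 CPM, SD, in shNT) and TF were measurable, while TTR and HNF4A had no reads and ALB had 2 reads over all libraries. The hepatocyte list summed to 20.7 to 24.01 CPM in shNT and 19.8 to 22.1 CPM in shYES1. The leukocyte markers summed to 0.605 to 1.62 CPM in shNT and 0.715 to 1.198 CPM in shYES1, with CD3E at no reads. The 6 fibroblast and stellate markers summed to 1926 to 1944 CPM in shNT and 1875 to 1936 CPM in shYES1, most of it COL1A1. Of these markers 3 were lower, DCN (-1.43 on the log2 scale), LUM (-1.12) and ACTA2 (-0.59). PDGFRB (1.33) and COL1A1 (0.17) were higher, and RGS5 did not pass. Of the 4 epithelial markers KRT8 and KRT18 were higher, EPCAM measured 1.43 ± 0.092 CPM and 0.979 ± 0.216 CPM without passing (adjusted p = 0.058), and CDH1 had 7 reads over all libraries. Of the 3 endothelial markers VWF was higher (2.09 on the log2 scale, from 0.351 ± 0.149 to 1.44 ± 0.218 CPM), PECAM1 was lower (-0.30) and CDH5 did not pass. The part of these differences in the repair genes was not tested.

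Most of the 41 genes were lower in shYES1, with the largest falls in homologous recombination, the Fanconi pathway and junction processing. This holds for a list chosen with earlier results of these data known. Of 120 other repair genes tested, 51 fell and 30 rose. Of the 41 genes, all of which were expressed enough to be tested, 34 fell, 2 rose and 5 did not pass (edgeR quasi-likelihood test, adjusted p under 0.05). Over the 14239 genes tested, 65.3% were called, 32.8% lower and 32.5% higher. The median log2 fold change of the 41 genes was -0.52, against -0.0047 over all genes tested. In 13 of the 41 genes the log2 fold change was -1 or below, which 6.23% of all genes reached, and none rose by as much. The 34 genes that fell also had no overlap between groups, a pattern that 34.0% of all genes showed in that direction. In a stricter test, against a change of 1.2-fold, 23 of the 41 genes were lower, beside 20.1% of all genes.

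**Figure D1:**
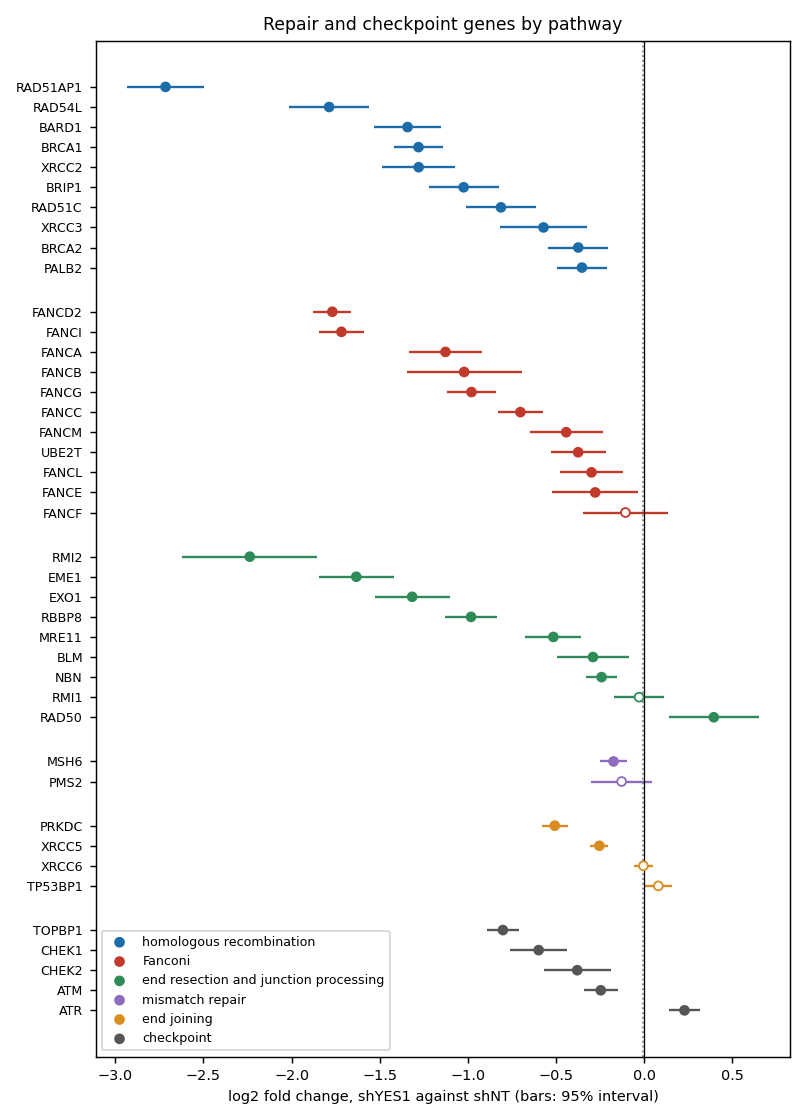
Log2 fold change of each of the 41 genes (shYES1 against shNT, x axis), grouped by pathway and sorted within it; bars are 95% intervals, filled points passed an edgeR adjusted p of 0.05 and open points did not, and the dotted line is the median of all genes. RAD51AP1 lies farthest left at -2.71, while the end joining and mismatch repair genes lie between -0.51 and 0.08.

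By pathway, the homologous recombination genes had the lowest median (-1.15, 10 of 10 lower), followed by the Fanconi genes (-0.70, 10 of 11 lower) and the end resection and junction genes (-0.52, 7 of 9 lower and 1 higher). The checkpoint genes had a median of -0.38 with 4 of 5 lower and 1 higher. Mismatch repair stood at -0.15 with 1 of 2 lower, and end joining at -0.13 with 2 of 4 lower. These medians are descriptions, and the differences between pathways were not tested. Summed over its members, the homologous recombination list fell from 178 ± 5.31 CPM (SD, n = 3) to 84.9 ± 0.785 CPM, or 47.6% of the control level. The Fanconi sum went from 257 ± 6.69 to 125.8 ± 0.140 CPM (49.0%), whereas the end joining sum went from 989 ± 5.05 to 889.9 ± 0.955 CPM (90.0%). Abundant genes weigh most in these sums. In shNT, XRCC5 and XRCC6 gave 386 and 382 CPM of the end joining sum. FANCD2 and FANCI gave 68.0 and 49.2 CPM of the Fanconi sum.

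**Figure D2:**
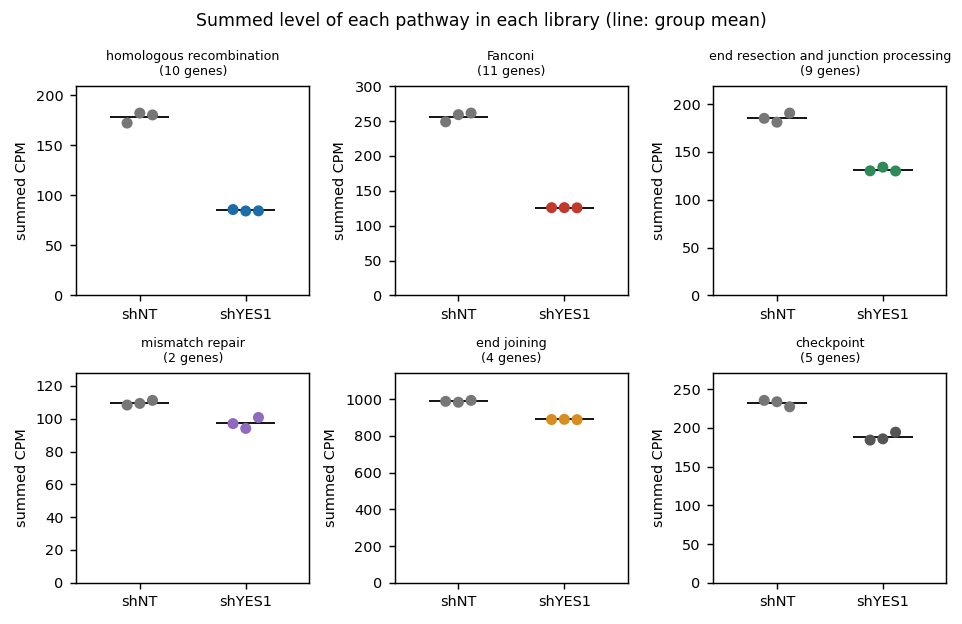
Summed CPM of each pathway's genes (y axis, from 0) in each of the 3 shNT and 3 shYES1 libraries; points are libraries and lines are group means. The homologous recombination sum ranged from 172 to 182 CPM in shNT and from 84.3 to 85.8 CPM in shYES1, and the end joining sum from 984 to 994 and from 889 to 891 CPM.

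Genes of the division cycle moved beside the repair genes. All 19 genes of a G1/S and replication list were lower (median log2 fold change -1.26), and their summed level went from 963 ± 30.7 to 474 ± 7.87 CPM. All 14 genes of a G2/M and mitosis list were lower as well (median -0.87), with sums of 1803 ± 1.88 and 979.8 ± 8.38 CPM. In these bulk libraries fewer dividing cells and less RNA per cell cannot be told apart, and the part of either in the repair genes was not tested.

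Homologous recombination pairs a resected DNA end with an intact copy, a step that needs BRCA1, PALB2, BRCA2 and accessory proteins. The largest fall among all 41 genes was that of RAD51AP1 (ENSG00000111247.14, GRCh38 chromosome 12, 4538798 to 4560048, plus strand), which helps the broken strand pair with its template. It measured 21.6, 23.5 and 20.9 CPM in the shNT libraries and 4.08, 2.82 and 3.01 CPM in the shYES1 libraries. Every shYES1 library was thus far under every shNT library, and the fall was 6.57-fold (log2 fold change -2.71, SE 0.108, edgeR adjusted p = 2.35e-26). RAD54L, a motor protein that remodels the paired strands, had 13.3, 17.3 and 16.7 CPM in shNT and 4.93, 4.62 and 4.29 CPM in shYES1 (-1.79, SE 0.112). The low value of shNT library 1 still lay above all shYES1 values.

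BRCA1 and BARD1 form a ubiquitin ligase that promotes resection and recruits PALB2. BRCA1 (ENSG00000012048.20, chromosome 17, 43044295 to 43170245, minus strand) measured 31.9, 32.9 and 31.1 CPM in shNT and 12.97, 12.4 and 13.7 CPM in shYES1, a log2 fold change of -1.28 (SE 0.069, adjusted p = 1.85e-21). BARD1 had 16.4, 20.1 and 17.6 CPM in shNT and 7.37, 7.01 and 6.95 CPM in shYES1 (-1.34, SE 0.094). The partners fell to nearly the same share, 41.2% and 39.5% of control. BRIP1, a helicase that binds BRCA1, had 15.4, 15.1 and 17.6 CPM in shNT against 9.31, 6.93 and 7.31 CPM in shYES1 (-1.02, SE 0.099). BRCA2 and PALB2 fell less: BRCA2 went from 17.2 ± 1.33 to 13.3 ± 1.44 CPM (-0.37) and PALB2 from 20.9 ± 0.717 to 16.4 ± 0.209 CPM (-0.35). Both calls were lost in the 1.2-fold test, with adjusted p of 0.080 and 0.088, while all other alternatives kept them (lowest adjusted p 4.55e-06 and 4.56e-07).

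XRCC2, RAD51C and XRCC3, accessory proteins of strand pairing, fell by unequal amounts. XRCC2 measured 14.4, 13.4 and 16.5 CPM in shNT and 6.03, 6.59 and 5.93 CPM in shYES1 (-1.28, SE 0.103). RAD51C went from 13.9 ± 1.28 to 7.89 ± 0.716 CPM (-0.81) and XRCC3 from 7.63 ± 0.317 to 5.18 ± 0.624 CPM (-0.57, adjusted p = 7.04e-05). XRCC3 lies opposite KLC1, with 5756 exonic bases on the other strand in GENCODE release 29, and with unstranded counts its log2 fold change turned to 0.16 (adjusted p = 0.288, beside a range of 6.58e-06 to 0.288 over its alternatives).

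The Fanconi pathway works in steps: a core complex with the ligase FANCL and the conjugating enzyme UBE2T attaches ubiquitin to FANCD2 and FANCI, which then recruit nucleases. The substrates fell most. FANCD2 (ENSG00000144554.10, chromosome 3, 10026414 to 10101930, plus strand) measured 67.6, 68.8 and 67.5 CPM in shNT and 20.6, 21.0 and 18.7 CPM in shYES1 (log2 fold change -1.77, SE 0.053, edgeR adjusted p = 4.35e-31). FANCI measured 45.7, 50.3 and 51.6 CPM in shNT and 15.95, 14.97 and 14.3 CPM in shYES1 (-1.72, SE 0.063). The level of each in shYES1 was 29.4% and 30.4% of control, and the libraries of a group differed little.

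Of the core complex, FANCA had 13.5, 14.8 and 12.3 CPM in shNT and 5.97, 5.82 and 6.54 CPM in shYES1 (-1.13, SE 0.104). FANCB, its X-linked subunit, had 5.41, 5.30 and 5.39 CPM in shNT and 3.23, 1.88 and 2.61 CPM in shYES1 (-1.02, SE 0.162). The shYES1 libraries of FANCB spread widely, on 22 to 53 reads each. FANCG fell from 29.3 ± 0.488 to 15.1 ± 1.603 CPM (-0.98) and FANCC from 32.1 ± 1.498 to 19.7 ± 0.878 CPM (-0.70). FANCM, the translocase that anchors the complex to DNA, fell from 9.89 ± 0.250 to 7.24 ± 0.310 CPM (-0.44).

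The enzymes of the ubiquitin step fell little. UBE2T went from 21.1 ± 2.30 to 16.3 ± 1.08 CPM (-0.37) and FANCL from 13.8 ± 0.812 to 11.2 ± 0.715 CPM (-0.30), and both calls were lost in the 1.2-fold test (adjusted p = 0.064 and 0.305, each the highest over its alternatives, with lowest values of 8.07e-07 and 0.00013). FANCE, which links the core complex to FANCD2, went from 7.47 ± 0.436 to 6.08 ± 0.897 CPM (-0.28, adjusted p = 0.041). Its call was lost in 9 of 16 alternatives, among them DESeq2, library-size scaling and leaving out shNT library 1, shNT library 2, shYES1 library 2 or shYES1 library 3, with adjusted p between 0.0068 and 0.420 over all 16. FANCF, an adaptor of the core complex, did not pass, at 6.86 ± 0.443 CPM in shNT and 6.42 ± 0.512 CPM in shYES1 (-0.11, 95% interval -0.35 to 0.13).

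**Figure D3:**
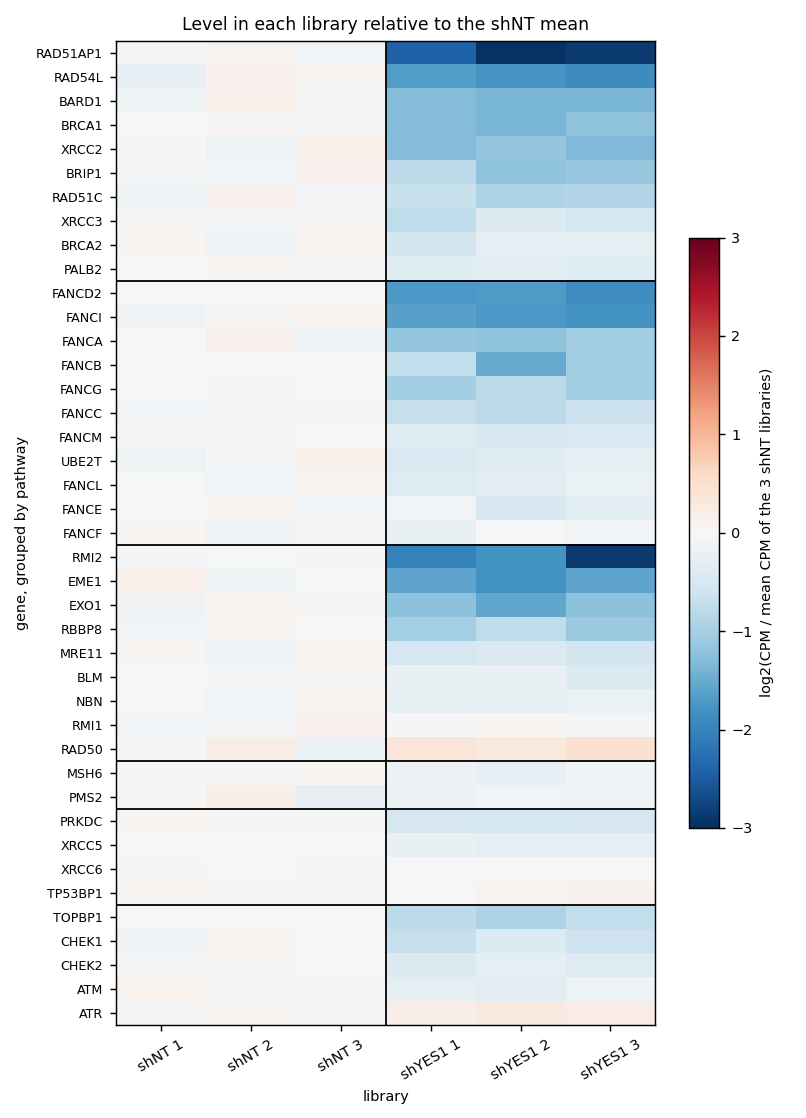
Level of each gene in each library as log2 of its CPM over the mean CPM of the 3 shNT libraries (colour), with genes grouped by pathway (rows) and libraries in columns. The shYES1 columns are blue for most recombination and Fanconi genes, most of all RAD51AP1, and near white for RMI1, XRCC6 and TP53BP1.

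End resection begins with the MRE11, RAD50 and NBN complex and RBBP8 and is extended by EXO1. EXO1, a nuclease, measured 12.7, 14.2 and 14.1 CPM in shNT and 5.78, 4.62 and 5.77 CPM in shYES1 (-1.32, SE 0.105). RBBP8, the cofactor that starts resection, fell from 30.4 ± 1.59 to 15.7 ± 1.97 CPM (-0.98). MRE11, the nuclease of the complex, fell from 19.9 ± 1.82 to 14.0 ± 0.627 CPM (-0.52) and NBN, its adaptor, from 63.9 ± 2.87 to 54.0 ± 1.17 CPM (-0.24), where NBN missed the threshold in the 1.2-fold test (adjusted p = 0.690, lowest over its alternatives 6.60e-09).

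RAD50 (ENSG00000113522.13, chromosome 5, 132556019 to 132646344, plus strand), the ATPase of the same complex, was higher in shYES1, against the direction of its partners. It measured 5.17, 6.36 and 4.69 CPM in shNT and 7.0, 6.59 and 7.41 CPM in shYES1 (0.39, SE 0.127, edgeR adjusted p = 0.0058). The gap between the highest shNT and the lowest shYES1 library was small. The call was lost with DESeq2 (adjusted p = 0.053), in the 1.2-fold test (0.127) and without shNT library 3 (0.075, log2 fold change 0.29), beside a lowest value of 0.00072. In GENCODE release 29 another protein-coding gene shares 7784 of the 9771 exonic bases of RAD50 on the same strand. A read on exons that annotated genes share cannot be assigned to one of them, so the level and change of RAD50 are uncertain. Which annotation release was counted is unknown here.

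BLM, TOP3A, RMI1 and RMI2 untangle joined DNA molecules, and EME1 is the partner of a nuclease that cuts them. RMI2 (ENSG00000175643.8, chromosome 16, 11249619 to 11381662, plus strand) showed the second largest fall of the 41 genes, from 5.74, 6.05 and 6.08 CPM in shNT to 1.46, 1.71 and 0.817 CPM in shYES1 (-2.24, SE 0.190, adjusted p = 2.02e-14). Its shYES1 values rest on 16 to 24 reads each. EME1 measured 17.0, 14.0 and 15.2 CPM in shNT and 5.11, 4.36 and 5.16 CPM in shYES1 (-1.63, SE 0.106). RMI1, which binds RMI2, measured 21.1 ± 1.68 and 20.9 ± 0.782 CPM (-0.029, 95% interval -0.17 to 0.11) and did not pass. The helicase BLM went from 9.94 ± 0.302 to 8.22 ± 0.612 CPM (-0.29, adjusted p = 0.011), a call lost with DESeq2, with library-size scaling, in the 1.2-fold test and without shYES1 library 3 (adjusted p from 0.0010 to 0.359 over 16 alternatives).

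In mismatch repair, MSH6, which recognises mispaired bases, measured 92.2, 91.6 and 97.8 CPM in shNT and 83.2, 79.3 and 86.4 CPM in shYES1. The groups did not overlap, but the change was small (-0.17, SE 0.039, adjusted p = 0.00011) and was not called with library-size scaling (0.074) or in the 1.2-fold test (1.0), beside a lowest adjusted p of 4.81e-08. PMS2, a nuclease of mismatch repair, did not pass, at 15.8 ± 2.20 and 14.3 ± 0.491 CPM (-0.13, 95% interval -0.30 to 0.047). Without shNT library 3, its lowest control value, it was called lower (-0.25, adjusted p = 0.015), beside a highest value of 1.0 over its alternatives. It was also called lower when scaled on genes whose annotated 3' UTR lacks the sequence CCTTTC, described below (adjusted p = 0.024). PMS2 has 11 annotated pseudogenes that bear its name, XRCC6 has 5 and CHEK2 has 4. RAD51AP1, FANCD2, MRE11 and RBBP8 have 1 each. The counts of all these genes are uncertain where reads fit several copies.

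End joining starts with the Ku dimer of XRCC5 and XRCC6, which binds broken ends and recruits the kinase PRKDC. Per length of exon the Ku genes had the highest levels of the 41 genes, at 116 CPM per kilobase in shNT for XRCC6 and 70.6 for XRCC5, against 12.7 for UBE2T, the next. PRKDC fell from 144.7, 133.6 and 130.5 CPM in shNT to 95.9, 94.3 and 96.4 CPM in shYES1 (-0.51, SE 0.036, adjusted p = 4.22e-17). XRCC5 fell slightly, from 386 ± 2.44 to 323 ± 4.798 CPM (-0.25, adjusted p = 3.50e-12), a change that the 1.2-fold test did not call (0.631, lowest over its alternatives 1.37e-16). XRCC6 measured 382 ± 10.1 and 381 ± 5.61 CPM (-0.0043, 95% interval -0.057 to 0.048), and its direction followed the scaling: it was called higher with library-size scaling (0.093, adjusted p = 0.0018) and lower when scaled on genes without the 3' UTR sequence (-0.097, 0.00087), beside a highest adjusted p of 1.0. TP53BP1, which shields ends from resection and so favours joining, was 85.5 ± 2.81 CPM in shNT and 90.1 ± 3.54 CPM in shYES1 (0.080, adjusted p = 0.063). It was called higher in 4 of 16 alternatives, namely library-size scaling (0.18), unstranded counts and without shNT library 1 or shYES1 library 1 (adjusted p from 8.93e-05 to 1.0 over all 16), and its sign turned when scaled on genes without the 3' UTR sequence (-0.012).

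In the checkpoint both effector kinases, the sensor ATM and the activator TOPBP1 fell, and ATR rose. TOPBP1 (ENSG00000163781.12, chromosome 3, 133598175 to 133662380, minus strand), which activates ATR, measured 77.0, 76.1 and 75.7 CPM in shNT and 44.2, 39.9 and 45.9 CPM in shYES1 (-0.80, SE 0.046, adjusted p = 1.61e-20). ATR (ENSG00000175054.14, chromosome 3, 142449235 to 142578826, minus strand) was higher, with 54.5, 59.0 and 53.3 CPM in shNT and 63.5, 66.6 and 65.3 CPM in shYES1 (0.23, SE 0.044, adjusted p = 1.49e-05). Its groups did not overlap, though a change this small was not called in the 1.2-fold test (0.809, lowest over its alternatives 1.97e-08). The effector kinase CHEK1 fell from 20.02 ± 1.38 to 13.4 ± 1.39 CPM (-0.60, adjusted p = 8.57e-09). CHEK2 fell from 11.8 ± 0.242 to 9.13 ± 0.415 CPM (-0.38) and ATM, the sensor kinase for broken ends, from 68.6 ± 4.77 to 57.3 ± 3.52 CPM (-0.25). The 1.2-fold test did not call CHEK2 (adjusted p = 0.090) or ATM (0.635), whose lowest values over the alternatives were 2.14e-05 and 5.84e-08.

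The ratio between genes was measured for 10 pairs, from levels per kilobase of exon. ATR with ATM and CHEK1 with CHEK2 are kinases of different checkpoint branches, and the other pairs are partners that act together. BRCA1 stood at 1.18 ± 0.101 times BARD1 in shNT and 1.21 ± 0.0814 in shYES1, and FANCD2 at 1.28 ± 0.0808 and 1.24 ± 0.0526 times FANCI, with overlapping groups in both pairs. BRCA2 to PALB2, FANCA to FANCG and RAD51C to XRCC3 overlapped as well. ATR to ATM went from 1.56 ± 0.162 to 2.19 ± 0.142, CHEK1 to CHEK2 from 1.16 ± 0.0567 to 1.01 ± 0.0578, and XRCC5 to XRCC6 from 0.608 ± 0.0125 to 0.511 ± 0.0134, with no overlap in any of these. BLM to RMI1 and MRE11 to NBN were lower without overlap too. Exon lengths are the union over annotated transcripts, which scales a ratio alike in every library, and no test was run on the ratios.

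**Figure D4:**
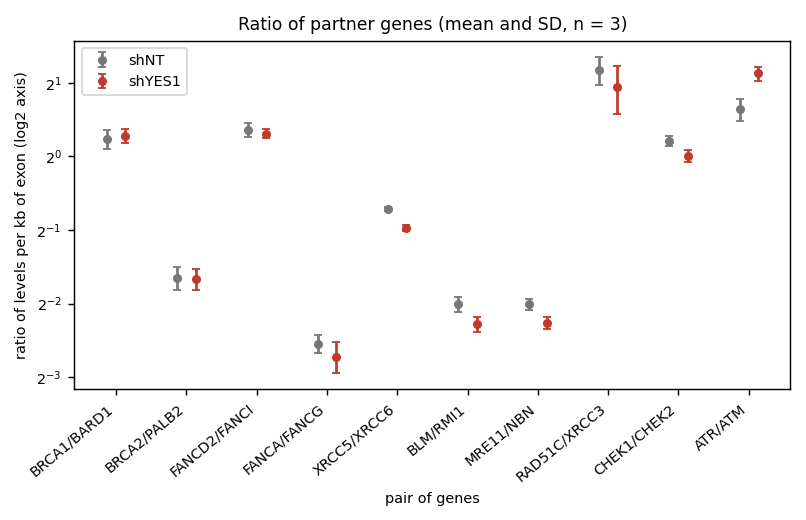
Ratio of levels per kilobase of exon (y axis, log2 scale) for 10 pairs of partner genes or checkpoint kinases, shown as mean and SD of the 3 libraries of each group. The ATR to ATM ratio rose from 1.56 to 2.19, while BRCA1 to BARD1 was 1.18 and 1.21.

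Promoter sequence is shown for the members that hold a known E2F word, since E2F factors are known to control many genes of these pathways. RefSeq windows of 250 bases before to 50 bases after the transcription start (GRCh38.p14) were matched for 36 of the 41 genes, those of FANCI, NBN, PRKDC, RMI2 and XRCC5 not being in the table. The words TTTCCCGC or TTTGGCGC, on either strand, occurred in 5 of the 36 (13.9%), in 3.69% of the tested genes with a promoter in the table and in 2.27% of all 35116 promoters. Positions count from 0 at the start base. In FANCD2 (chr3:10026187-10026486, plus strand) the word spans the start; in XRCC2 (chr7:152676092-152676391, minus strand) it begins at 21, in FANCC (chr9:95317660-95317959, minus strand) at -46, in MSH6 (chr2:47782895-47783194, plus strand) at 3 and in XRCC6 (chr22:41621045-41621344, plus strand) at 42. Capitals mark the word or its reverse complement.
FANCD2: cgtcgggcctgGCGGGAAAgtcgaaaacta
XRCC2: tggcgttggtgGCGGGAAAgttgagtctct
FANCC: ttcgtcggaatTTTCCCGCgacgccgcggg
MSH6: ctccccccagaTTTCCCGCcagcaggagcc
XRCC6: gtcgcttccctGCGCCAAA

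The 5 genes ranged in log2 fold change from -1.77 for FANCD2 and -1.28 for XRCC2 through -0.70 for FANCC and -0.17 for MSH6 to -0.0043 for XRCC6. Their median was -0.70, against -0.52 for the 31 members with neither word. Among all tested genes with a promoter in the table, 40.8% of those with a word were lower and 33.5% of those without. The CHR element (TTTGAA or TTCGAA, either strand), typical of genes active in mitosis, occurred in 4 of 36 members (11.1%), namely UBE2T, FANCC, ATM and BRIP1, in 11.2% of tested genes and in 16.4% of all promoters. The NF-Y word CCAAT occurred in 19 of 36 (52.8%), in 36.6% of tested genes and in 34.6% of all promoters. The members with it had the smaller median fall (-0.37 against -0.98 for the 17 without). Only exact words were searched, so a promoter without the E2F words may still hold an E2F site. The promoter of RAD51AP1, which fell most, holds neither E2F word in the window. Its 250 bases before the start (chr12:4538640-4538889, plus strand) are given with its 1 CCAAT word, here on the opposite strand, in capitals.
RAD51AP1: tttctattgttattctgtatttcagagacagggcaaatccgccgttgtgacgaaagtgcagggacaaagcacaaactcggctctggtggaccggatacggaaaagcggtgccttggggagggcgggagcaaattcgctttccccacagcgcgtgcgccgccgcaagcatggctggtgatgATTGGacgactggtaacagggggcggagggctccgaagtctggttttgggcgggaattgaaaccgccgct

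The 3' UTR sequence CCTTTC was taken from earlier work on these libraries. The shares below thus describe the data and are not independent evidence about the sequence. A gene counted as having it if any annotated coding transcript held it, and 3' UTR length was not accounted for. Of the tested genes with it in an annotated 3' UTR, 43.6% fell (median -0.077), and of those without it, 25.9% (median 0.095). In the repair genes 14 of the 17 with the sequence fell (median -0.51) and 20 of the 24 without it (median -0.58). The difference between these members was not tested, nor was the part of the sequence in their change.

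Other repair genes, 124 listed and 120 tested, had a median log2 fold change of -0.082. Of these, 51 fell, 30 rose and 39 missed the threshold. They were listed with earlier results of these data known, and nothing particular to either set is drawn from the difference. For comparison with the list counts that follow, 32.8% of all genes tested were lower and 32.5% higher. The lists were not tested against these shares, so a count alone does not show that a pathway fell or rose. Among other recombination genes 8 of 19 were lower and 2 higher (median -0.16). HROB, which loads a helicase during recombination, fell from 6.52 ± 0.064 to 3.28 ± 0.101 CPM (-0.99). BABAM1, of the BRCA1-A complex, was higher (0.36), as was the helicase gene HELQ (0.32). Of the other Fanconi and crosslink genes 7 of 15 were lower and 3 higher. WDR48, the partner of the enzyme that removes ubiquitin from FANCD2, fell from 46.9 ± 1.74 to 21.0 ± 1.93 CPM (-1.14) and FAAP24 fell (-0.51), while the nuclease scaffold SLX4 (0.36) and CENPX (0.29) rose.

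Of the other resection and junction genes 6 of 9 were lower and 1 higher, with the helicase RECQL4 at -1.25, the nuclease DNA2 at -0.71 and EME2 at 0.44. Among the other mismatch repair genes 2 of 5 were lower, 1 was higher and 2 did not pass, with PMS1 at -0.32 and MSH3 at 0.13. End joining and break signalling genes beyond the 4 members split, with 6 lower and 5 higher of 15. POLQ, the polymerase of an alternative end-joining route, fell from 22.1 ± 1.46 to 5.30 ± 0.235 CPM (-2.06), and the histone H2AX, phosphorylated around breaks, from 55.0 ± 0.394 to 19.1 ± 0.838 CPM (-1.53). LIG4, the ligase of classical end joining, rose from 31.3 ± 1.77 to 45.8 ± 1.47 CPM (0.54), and SHLD2, of the shieldin complex that protects ends, rose as well (0.52).

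Among other checkpoint genes 7 of 12 were lower and 2 higher (median -0.60). The kinase PKMYT1 (-1.31) and CLSPN, the adaptor between ATR and CHEK1, fell most, CLSPN from 19.0 ± 1.302 to 8.40 ± 0.440 CPM (-1.18). RAD17 (0.42) and HUS1 (0.25), which load and form the damage clamp, rose. Translesion and direct reversal genes gave 6 lower and 2 higher of 10, with the polymerase POLH (-0.74) and PRIMPOL (-0.74) lower and ALKBH2 (0.32) and POLK (0.26) higher.

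In nucleotide excision repair 8 of 17 genes were higher and 3 lower (median 0.11), among them XPA, which verifies the lesion, from 17.3 ± 1.46 to 28.1 ± 2.70 CPM (0.68), and UVSSA (0.67), against CETN2 (-0.79) and GTF2H3 (-0.47). In base excision and strand-break repair 6 of 18 were lower and 6 higher (median -0.035), near the shares over all genes tested. The uracil glycosylase UNG (-1.67) and NEIL3 (-1.32) fell, while the glycosylases NTHL1 (0.52) and TDG (0.52) rose.

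**Figure D5:**
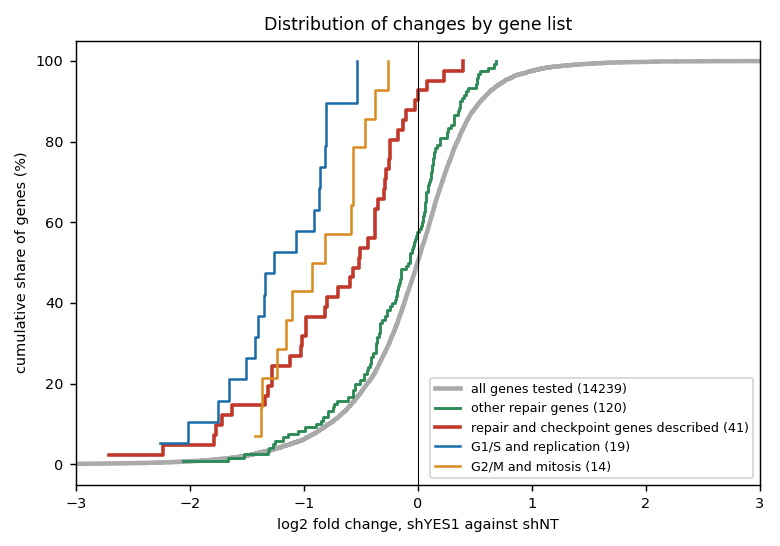
Cumulative share of genes (y axis, percent) at or below each log2 fold change (x axis, shown from -3 to 3) for the 41 genes described, 120 other repair genes, 19 G1/S and 14 G2/M genes and all 14239 genes tested. The medians are -0.52 for the 41 genes, -0.082 for other repair genes, -1.26 and -0.87 for the cycle lists and -0.0047 for all genes.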

How the data were processed

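Reads of 6 poly(A) libraries (KAPA stranded kit) were counted per gene by the authors and deposited as raw read counts, with an unstranded column and one per strand. CASAVA 1.8.2, Trimmomatic 0.35, STAR 2.5.1b and GRCh38 are named per the submitters' processing notes, and an annotation release was not given in the sources used here. Reverse-strand counts were used (93.5% to 94.0% of stranded gene reads), and the 4 entries naming no gene (19.8% to 20.3% of reads) were left out. Of 58219 identifiers, 57392 were matched to symbols and 57881 to GENCODE release 29. In R 4.3.3, edgeR 4.0.16 (filterByExpr, minimum count 10, TMM factors, robust quasi-likelihood test, Benjamini-Hochberg adjustment over 14239 genes) compared shYES1 with shNT. The step was tested on simulated data in which few genes changed. That cannot check the scaling in these data, where most genes were called. CPM and per-kilobase levels were computed from the counts, and SE is the change divided by the square root of F. Alternatives used DESeq2 1.42.0, limma 3.58.1 (voom), other scalings, filters, tests and left-out libraries. The members, lists and motifs were chosen with earlier results of these data known. All 41 members were to be described, library by library where the log2 fold change was 1 or more in size, where a gene rose or where it fell most in its pathway. From each other repair list, the 2 largest called falls and rises at a mean of at least 1 CPM were named. Some genes that this rule would name are not reported here.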

Additional observations from a re-analysis of the deposited data

How the results depend on the processing

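Of 656 refits of single members (16 alternatives for each of 41 genes), 620 kept their call, 27 lost it, 13 of them in the 1.2-fold test, 7 gained one in the same direction and 2 turned sign with a call in the report or in the refit (XRCC3 with unstranded counts, 0.16, and XRCC6 with library size only, 0.093); 24 genes kept their call throughout. RMI1, XRCC6 and TP53BP1 also turned sign in refits that, like the report, did not call them. Members lower numbered 23 to 36. Members higher, 2 in the report, were 4 with library size only, 1 with DESeq2, 2 with limma-voom and 1 to 3 with 1 library left out. In the 1.2-fold test, run with edgeR only, 0 members were higher, and 0 also at an unadjusted p under 0.05. The 1.2-fold test called 2861 genes lower and 2324 higher, against 4676 and 4623. With library size only, 3762 were lower and 5799 higher, the median of all genes was 0.092, and the medians were -0.42 for all members, -1.06 for homologous recombination, -0.61 for Fanconi, -0.28 for checkpoint, -0.054 for mismatch repair and -0.032 for end joining. Scaled on the 6164 genes without the 3' UTR sequence, an alternative chosen after seeing the data, 5717 were lower and 3553 higher, the median of all genes was -0.097, and the medians were -0.61 for all members, -0.79 for Fanconi, -0.24 for mismatch repair and -0.22 for end joining. These shifts come from the scaling itself, which moves all genes alike. With the sample number as a replicate block, 34 members were lower and 2 higher. Same-numbered libraries did not deviate together (correlations 0.012, 0.025 and 0.012, beside -0.038 to 0.025 for other pairs). With 3 libraries per group, these values cannot tell whether same-numbered libraries shared a culture, day or preparation. Depth limits RMI2, FANCB and RAD50 most.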
